A study of Mus musculus with 4 samples.

Results

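The 57 genes described here encode the machinery that copies DNA and the kinases, adaptors and repair factors that watch over it during S phase. They were taken from a written list of symbols and kept where the symbol appeared in the deposited table of rlog values. All 57 were found there and in the count table, each under 1 Ensembl identifier, among 47643 genes in the count table. They were divided by role into 12 origin licensing genes, 32 replication fork genes, 10 S-phase checkpoint and repair genes and 3 S-phase regulators.

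The mice were of the genotype Tg4 Nr4a3-Tocky Il10-GFP and received [4Y] MBP peptide once under the skin, at 4 mg/kg. Their splenic CD4+ T cells were sorted 24 h later for messenger RNA sequencing. Tg4 T cells carry a transgenic receptor for this myelin basic protein peptide, and Nr4a3-Tocky is a fluorescent Timer protein driven by Nr4a3, a gene switched on by T cell receptor signalling. All libraries therefore came from mice with the same alleles, dose and time. Both sorted populations were Timer+, so both had recently received receptor signals. They differed in the Il10 reporter, and each population, Il10-eGFP+ and Il10-eGFP-, gave 2 libraries. The study's methods describe biological replicate mice, do not say whether equally numbered libraries came from 1 mouse, and state that another replicate pair was removed as an outlier, which was not analysed here. The model has a single receptor specificity at 1 time point, and no untreated cells were among the 4 libraries.

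The libraries were made from 5 ng of RNA with 22 PCR cycles by a 3′ end method, in which a transcript is read near its end and counts do not scale with gene length. They held 644679 to 730330 counts each. Counts are given below as Il10-eGFP- replicates 1 and 2 against Il10-eGFP+ replicates 1 and 2. For Il10 itself they were 0 and 0 against 29 and 41. All 9 T cell markers were detected in every library. Their sum was 3733 and 3519 CPM, which are counts scaled to a common library total, in the Il10-eGFP- libraries. In the Il10-eGFP+ libraries it was 4235 and 4008 CPM, and 1 of the 9, Trac, was called higher. Summed B cell and plasma cell markers were 130.3 and 178.0 CPM in Il10-eGFP- and 557.8 and 601.6 CPM in Il10-eGFP+ libraries. Of these, 6 of the 8 tested were called higher, and all 8 were above 0 in log2 fold change. The B cell gene Cd22 had 4 and 0 against 14 and 18 counts and the plasma cell gene Jchain 0 and 0 against 15 and 16, while Cd79a, another defining B cell gene, had 2 and 0 against 0 and 0. Summed myeloid markers (104.5 and 137.2 against 366.0 and 187.5 CPM, 2 of 8 called, Adgre1 and Cd14 at 0 counts in every library), CD8 and NK cell markers (50.2 and 87.5 against 91.9 and 106.8 CPM, 1 of 5 called, Ncr1 at 0) and erythroid markers (162.9 and 140.1 against 275.7 and 210.6 CPM, 0 of 4 called, 2 of them at an unadjusted p under 0.05) also lay higher in both Il10-eGFP+ libraries. Within the CD8 and NK cell list, Gzma (9 and 18 against 31 and 31 counts) and Nkg7 were above 0, while Cd8a (4 and 10 against 3 and 3 counts) and Cd8b1 (18 and 17 against 7 and 13 counts) were lower in both Il10-eGFP+ libraries, and the list's median log2 fold change was -0.08. The part of these markers in the results below was not tested. In sorted bulk cells, a smaller share of cells in a cell cycle phase and less RNA per cell in that phase cannot be told apart.

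Replication starts with licensing in G1, when the origin recognition complex (Orc1-6), Cdc6 and Cdt1 load the Mcm2-7 ring onto DNA. In S phase, kinases recruit Cdc45 and the GINS complex to switch the ring on as a helicase, and the polymerases, the Pcna clamp and the single-strand binding protein RPA follow it along the fork. Stalled forks signal through Atr, Timeless, Tipin and claspin to the kinase Chk1. Many of these genes are transcribed under control of E2F factors at the G1 to S transition, and antigen-stimulated T cells are known for rapid passage through this cycle.

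To place the genes beside sequence that E2F factors are known to bind, the 250 bases before and 50 bases after the transcription start were read from RefSeq (GRCm38) for the 45 members that had an entry. The motif searched was TTTCCCGC, TTTGGCGC, TTTCGCGC or TTTGCCGC on either strand. It was found in 17 of the 45 members (37.8%), against 2.60% of the 27025 genes and 2.26% of the 32851 promoters in the table. By role it was present in 7 of 10 licensing, 8 of 25 fork and 2 of 7 checkpoint genes, and in 0 of 3 regulators. A shorter form that lacks the first T was present in 30 of 45 members (66.7%), against 10.9% of all genes. The stretches below are shown because they belong to both members that passed the test and to the licensing genes in which the motif was most frequent. Capitals mark the motif, or in E2f8 its shorter form, 5′ to 3′ on the strand of the gene.

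Clspn, chr4:126556990-126557019, plus strand: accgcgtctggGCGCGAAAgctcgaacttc
E2f8, chr7:48881665-48881744, minus strand: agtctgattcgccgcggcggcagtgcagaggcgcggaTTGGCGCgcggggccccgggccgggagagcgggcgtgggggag
Orc1, chr4:108579373-108579452, plus strand: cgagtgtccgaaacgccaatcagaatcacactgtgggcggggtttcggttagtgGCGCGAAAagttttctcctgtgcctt
Cdc6, chr11:98908002-98908031, plus strand: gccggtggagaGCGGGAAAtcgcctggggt
Mcm5, chr8:75109322-75109401, plus strand: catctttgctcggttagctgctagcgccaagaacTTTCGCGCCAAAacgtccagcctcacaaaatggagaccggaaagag
Mcm6, chr1:128359741-128359820, minus strand: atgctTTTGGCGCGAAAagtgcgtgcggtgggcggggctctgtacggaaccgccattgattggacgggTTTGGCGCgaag

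In Mcm5 and Mcm6 a forward and a reverse copy of the motif overlapped, which gives the long run of capitals, and Mcm6 held 3 copies, starting 110, 106 and 47 bases before the transcription start. The single copy in Orc1 started 27 bases before it, and that in Cdc6 138 bases before it. In Clspn the motif lay at position 22 after the RefSeq start. A match describes letters in a window and does not show binding.

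Few of the replication genes passed the test between the populations. At an adjusted p under 0.05 (edgeR's quasi-likelihood test, Benjamini-Hochberg adjustment over 9608 tested genes), 2 of the 57 rose in Il10-eGFP+ T cells and 0 fell. This is 3.51% of the members, near the background of 4.09% over all tested genes (2.35% higher and 1.74% lower), so the share is not a result about the members. DESeq2's Wald test called 0 of the 55 members to which it gave an adjusted p, with 5 at an unadjusted p under 0.05. The share of all genes that it called was 2.10%, so this count too is near the background. Limma voom and edgeR with at least 5 counts in every library each called 4 members (7.02%), beside 4.25% and 5.74% of all genes. In edgeR's test the count at an unadjusted p under 0.05 was 8 of 57 (14.0%), against 15.5% of all tested genes. The median log2 fold change was 0.07 over the members and 0.00 over all genes. For 46 of 57 members the 95% interval of the fold change lay within 2-fold in either direction, and for 21 within 1.5-fold. All 57 passed the filter of at least 10 counts over the libraries, with 57 to 2586 counts in total. Their summed level was 10552 and 11366 CPM in the Il10-eGFP- and 11366 and 11293 CPM in the Il10-eGFP+ libraries, a ratio of 1.03. CPM here were scaled by TMM factors.

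**Figure D1:**
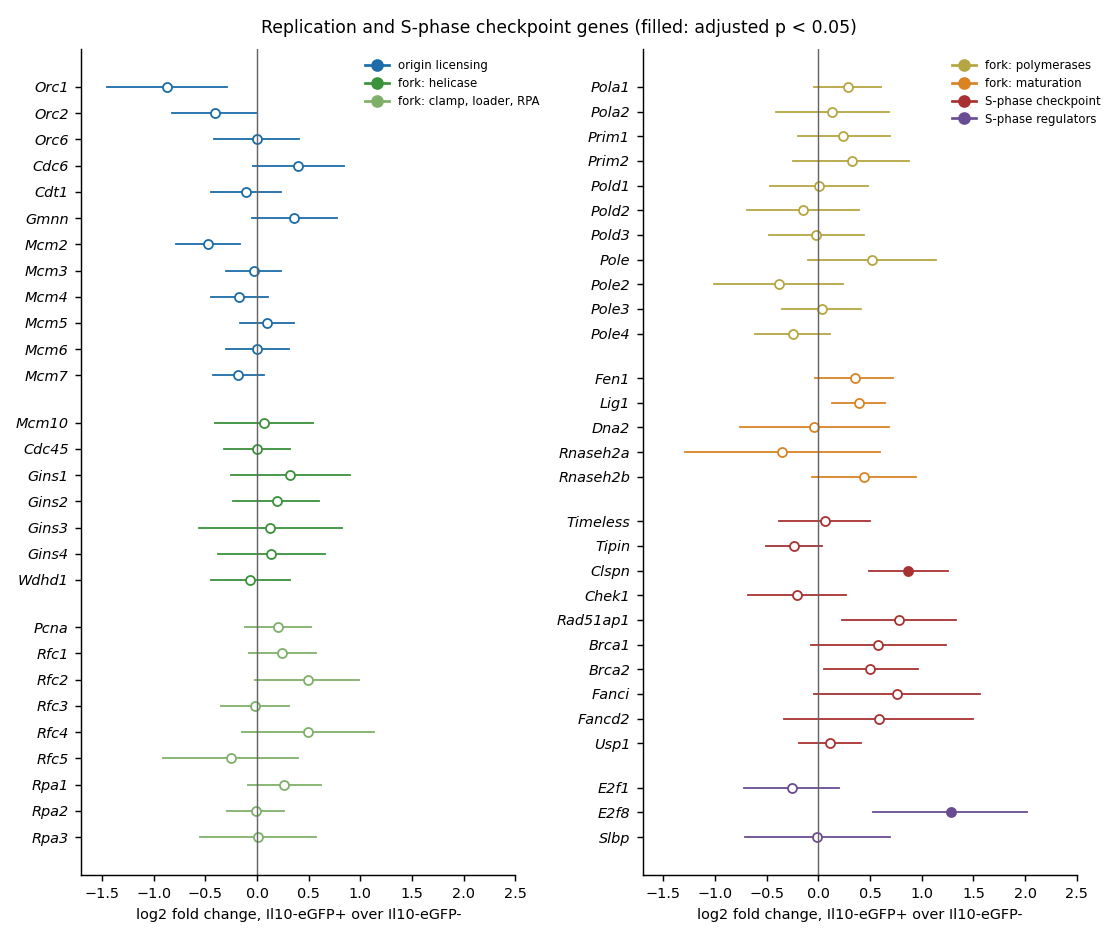
Log2 fold change of each of the 57 genes in Il10-eGFP+ over Il10-eGFP- T cells (points) with its 95% interval from edgeR (lines), coloured by role, with filled points for an adjusted p under 0.05. Clspn and E2f8 are the filled points, at 0.87 and 1.28, and most other intervals cross 0.

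The 2 genes that rose were Clspn and E2f8. Clspn (ENSMUSG00000042489; GRCm38 chromosome 4, 126556935 to 126593903) encodes claspin, the adaptor that brings Chk1 to the activating kinase Atr at stalled forks and also helps forks to run at normal speed. It had 81 and 82 against 143 and 135 counts. Both Il10-eGFP+ libraries lay well above both Il10-eGFP- libraries, at 210.7 ± 22.5 against 114.8 ± 6.86 CPM (SD, n = 2 each). The log2 fold change was 0.87 (standard error 0.19, 95% interval 0.49 to 1.25, edgeR adjusted p = 0.00212). It was not called by DESeq2's Wald test (adjusted p = 0.0613). Its exons overlap no other gene. With each library left out in turn it stayed between 0.76 and 0.98, and the adjusted p between 0.00254 and 0.0422.

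E2f8 (ENSMUSG00000046179; chromosome 7, 48866429 to 48881596) encodes an atypical E2F factor that represses E2F target genes later in S phase and is itself an E2F target. It had 13 and 18 against 42 and 28 counts. The populations did not overlap, but the Il10-eGFP+ libraries differed 1.65-fold in CPM from each other. The log2 fold change was 1.28 (standard error 0.37, 95% interval 0.53 to 2.02, edgeR adjusted p = 0.0338). The call rested on few counts and on single libraries. Leaving out Il10-eGFP- replicate 1 gave 1.01 (adjusted p = 0.241), leaving out Il10-eGFP+ replicate 1 gave 0.88 (adjusted p = 0.434), and DESeq2's Wald test gave an adjusted p of 0.381. Exons of E2f8 overlap those of Gm2788 on the opposite strand, which had 2 counts in 1 library and 0 in the others.

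**Figure D2:**
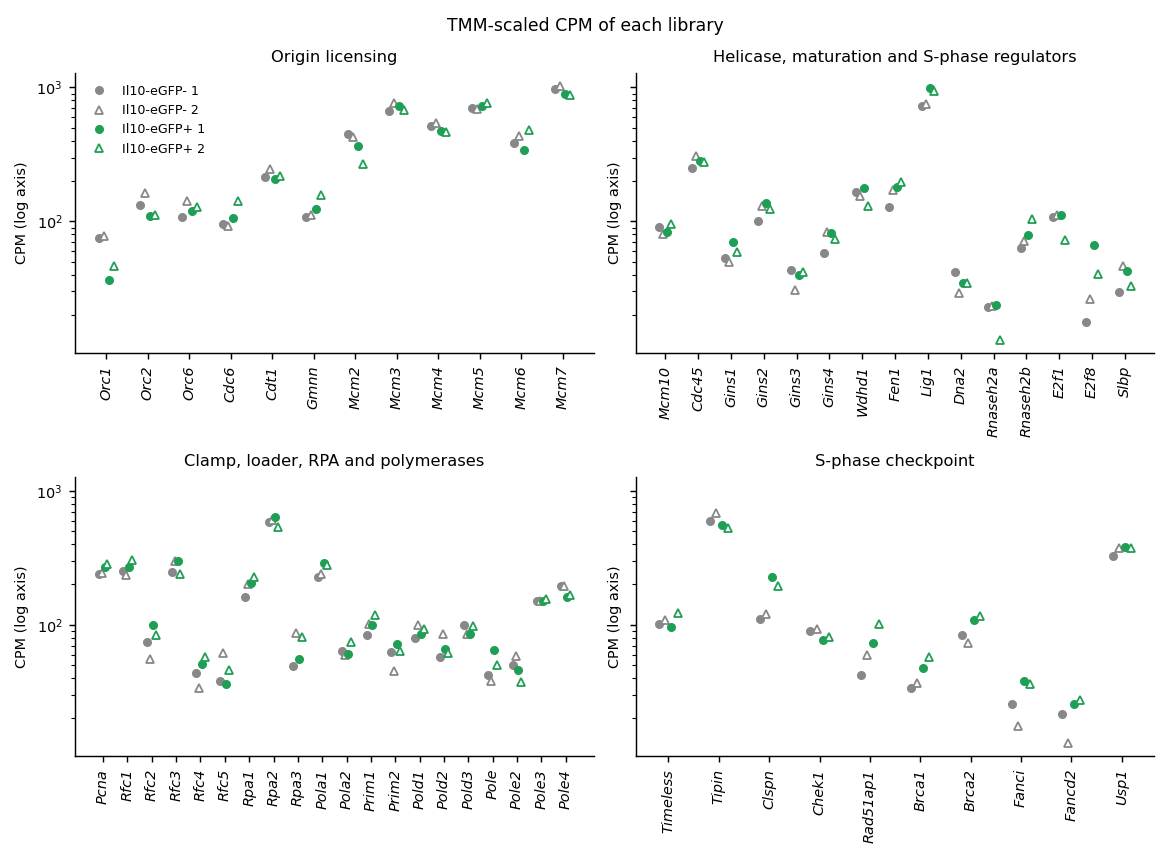
TMM-scaled CPM (log axis) of each member in the Il10-eGFP- libraries (grey) and the Il10-eGFP+ libraries (green), with circles for replicate 1 and triangles for replicate 2. The libraries of the populations separate for Clspn, Orc1, Mcm2 and Lig1 and intermingle for Mcm3, Mcm6 and Cdc45.

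Among the 12 licensing genes, 0 passed the adjusted threshold in edgeR's test. An unadjusted p under 0.05 was found for 3 of them, all with lower values in Il10-eGFP+ T cells. Over all 9608 tested genes, 1485 (15.5%) had such a p, 720 of them with lower values. The median log2 fold change of the licensing genes was -0.07, with 4 of 12 above 0. With single libraries left out it ran from -0.208 to 0.033. Summed licensing transcripts were 4424 and 4729 CPM in the Il10-eGFP- and 4227 and 4345 CPM in the Il10-eGFP+ libraries. This was the one role whose summed level was lower in both Il10-eGFP+ libraries, by a ratio of 0.94.

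The origin recognition complex held the member with the lowest fold change. Orc1, the largest subunit and the one that is degraded after G1 in mammalian cells, had 55 and 53 against 23 and 32 counts (ENSMUSG00000028587; chromosome 4, 108579423 to 108614833). Its values did not overlap between the populations, and the log2 fold change was -0.87 (standard error 0.29, 95% interval -1.45 to -0.29), but the edgeR adjusted p was 0.0750. Orc2, a core subunit, had 97 and 111 against 69 and 77 counts, and a log2 fold change of -0.41 (interval -0.82 to -0.00, adjusted p = 0.321). Orc6, which is needed for loading of the ring, had 79 and 98 against 76 and 89 counts and overlapped fully, at -0.00 (interval -0.42 to 0.41). Exons of Orc2 and Orc6 overlap those of Nif3l1 and Vps35 on the opposite strand, and the strand setting of the counting is not given in the sources used here. The subunits outside the 57 genes were Orc3 at -0.28, Orc4 at -0.24 and Orc5 at -0.96 (46 and 42 against 18 and 24 counts, adjusted p = 0.0760). Over Orc1-6 the counts summed to 345 and 367 against 221 and 289. In CPM this was 501.9 ± 47.5 against 383.6 ± 47.2 (SD, n = 2 each), a ratio of 0.76 with no overlap.

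The Mcm2-7 ring summed to 3692 and 3897 CPM in the Il10-eGFP- and 3524 and 3543 CPM in the Il10-eGFP+ libraries, a ratio of 0.93. Its subunits, each present once in the ring, ran from -0.47 to 0.10 in log2 fold change. Mcm2, the subunit that also carries histones through the fork, had 330 and 293 counts against 232 and 185 (ENSMUSG00000002870; chromosome 6, 88883474 to 88898780). The log2 fold change was -0.47 (standard error 0.15, 95% interval -0.78 to -0.16), and the edgeR adjusted p of 0.0695 lay just outside the threshold. It was called with limma voom (adjusted p = 0.0331), and by edgeR when at least 5 counts were required in every library (adjusted p = 0.0467). Mcm4 and Mcm7 also had lower values in both Il10-eGFP+ libraries, with 380 and 373 against 299 and 325 counts for Mcm4 (-0.17) and 714 and 704 against 560 and 608 counts for Mcm7 (-0.18), and neither was called. Mcm3 was at -0.03 with overlapping libraries, and Mcm5 was at 0.10 (interval -0.16 to 0.36). Mcm6 differed more within the Il10-eGFP+ population (339.1 and 483.3 CPM) than between the populations, whose means were 411.6 and 411.2 CPM. For Mcm3, Mcm4, Mcm5, Mcm6 and Mcm7 the intervals placed any change within 1.5-fold. The end of the Mcm5 transcript shares some 50-base sequences with other genes, and that of Mcm7 with a pseudogene, Gm5487, so that reads could have been assigned elsewhere.

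The loading factors had values on both sides of 0. Cdc6, the loader, had 71 and 63 against 67 and 98 counts, and geminin (Gmnn), which inhibits Cdt1 after origins have fired, had 80 and 76 against 78 and 109. Both had higher CPM in each Il10-eGFP+ library, with log2 fold changes of 0.40 (interval -0.04 to 0.84) and 0.36 (interval -0.05 to 0.77). Without Il10-eGFP+ replicate 2 both were at 0.17, and without Il10-eGFP+ replicate 1 they were at 0.58 and 0.52. Cdt1 itself, the partner that geminin holds, was at -0.11 (interval -0.45 to 0.23) with overlapping libraries. None of these passed the test.

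**Figure D3:**
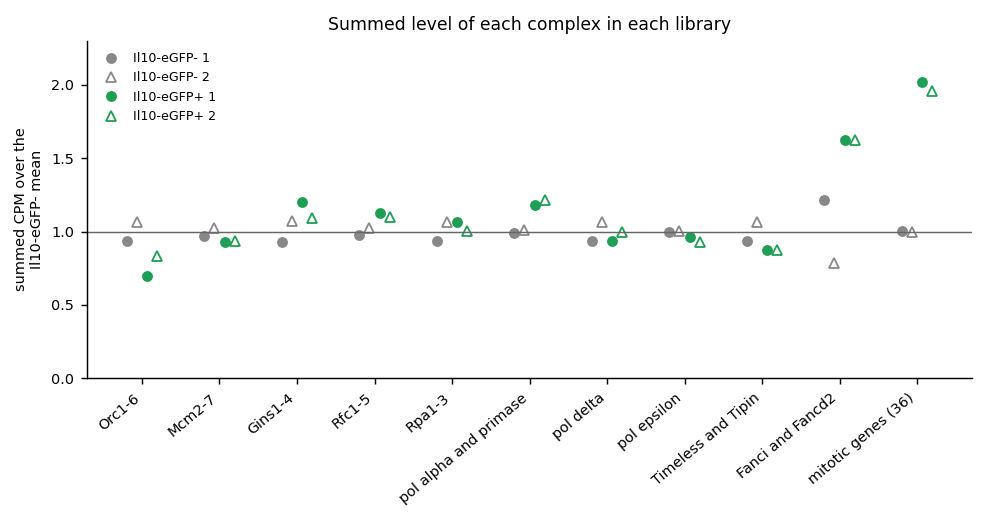
Summed CPM of the genes of each complex or pair in every library, divided by the mean of the Il10-eGFP- libraries (line at 1), with grey for Il10-eGFP- and green for Il10-eGFP+. The Orc1-6 sum lies below the Il10-eGFP- libraries, polymerase alpha with primase lies above them, and the sum of 36 mitotic genes lies near 2.

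Of the 32 fork genes, 0 passed the adjusted threshold in edgeR's test. Only 1 of the 32, Lig1, had an unadjusted p under 0.05, against 15.5% of all tested genes. The median log2 fold change of the fork genes was 0.13, and 21 of 32 were above 0. The range ran from -0.38 for Pole2 to 0.52 for Pole. Over all genes, the 25th and 75th percentiles were -0.33 and 0.35, and the 5th and 95th were -1.05 and 1.17. All tested genes include some with as few as 10 counts in total, while no member had under 57.

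The helicase partners stood close to 0. Cdc45, which ties the ring into an active helicase, had 183 and 212 against 177 and 191 counts and a log2 fold change of -0.00 (95% interval -0.32 to 0.32). The 4 GINS subunits ran from 0.13 for Gins3 and 0.14 for Gins4 to 0.19 for Gins2 and 0.32 for Gins1. Summed over Gins1-4, the Il10-eGFP- level of 274.2 ± 26.9 CPM stood against 314.1 ± 21.9 CPM (SD, n = 2 each). The sums did not overlap, but the single subunits did for all but Gins1, and 0 of the 4 were called. Wdhd1, which links the helicase to polymerase alpha, was at -0.07, and Mcm10, which helps to start the fork, at 0.07. Their libraries overlapped. Exons of Cdc45 and Gins2 overlap those of Ufd1 and Gse1 on the opposite strand.

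Pcna, the sliding clamp, had 175 and 167 against 170 and 197 counts, and a log2 fold change of 0.20 (interval -0.12 to 0.52, adjusted p = 0.611). Its loader, replication factor C, summed to 655.6 and 684.3 against 755.8 and 734.3 CPM, a ratio of 1.11. Within the loader, Rfc2 and Rfc4 were both at 0.49 and Rfc1 at 0.24, without overlap of the populations, while Rfc3 was at -0.02 and Rfc5 at -0.25. The RPA subunits stood at 0.26 for Rpa1, -0.01 for Rpa2 and 0.01 for Rpa3. The loader and RPA subunits did not pass the test. Exons of Rfc2, Rfc4 and Rfc5 overlap those of other genes on the opposite strand.

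The summed levels of the polymerases lay on either side of a ratio of 1, and 0 of 11 subunits were called. Polymerase alpha with primase, which lays the RNA and DNA primer, summed to 438.4 and 445.0 CPM in the Il10-eGFP- and 521.3 and 536.7 CPM in the Il10-eGFP+ libraries, a ratio of 1.20. All of its 4 genes were above 0, with Pola1 at 0.29, Pola2 at 0.13, Prim1 at 0.24 and Prim2 at 0.32. Polymerase delta, which copies the lagging strand, showed a ratio of 0.97 with overlapping libraries, with Pold1 at 0.01, Pold2 at -0.15 and Pold3 at -0.02. Polymerase epsilon, which copies the leading strand, showed a ratio of 0.95. In it the catalytic subunit Pole was at 0.52 (31 and 26 against 41 and 35 counts), while Pole2, Pole3 and Pole4 were at -0.38, 0.03 and -0.25. Pole4 had 143 and 134 against 102 and 115 counts. Pole2 shares exons and 50-base sequences with Gm49384, an overlapping gene on the same strand.

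Lig1, the ligase that seals Okazaki fragments, was the fork gene closest to the threshold (ENSMUSG00000056394; chromosome 7, 13277283 to 13311433). It had 539 and 518 against 628 and 658 counts. In CPM this was 743.7 ± 17.1 against 972.2 ± 32.4 (SD, n = 2 each), with little spread within each population. The log2 fold change was 0.39 (standard error 0.13, 95% interval 0.13 to 0.64, edgeR adjusted p = 0.0734). As for Mcm2, limma voom (adjusted p = 0.0303) and the stricter filter (edgeR adjusted p = 0.0449) did call it, and DESeq2's Wald test did not. Zswim9, whose exons overlap those of Lig1 on the opposite strand, had 3 to 8 counts. Fen1, the flap nuclease that acts just before the ligase, had 94 and 117 against 114 and 137 counts (0.35, interval -0.03 to 0.72), but its exons overlap those of Tmem258 on the opposite strand, a gene with 178 to 293 counts. Rnaseh2b was at 0.44 and Rnaseh2a at -0.35, the latter on 57 counts in all and with exons that overlap those of Prdx2. The nuclease Dna2 was at -0.04. Summed over the 5 maturation genes, 988.2 and 1051 CPM stood against 1314 and 1298 CPM, a ratio of 1.28 that was carried mostly by Lig1.

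**Figure D4:**
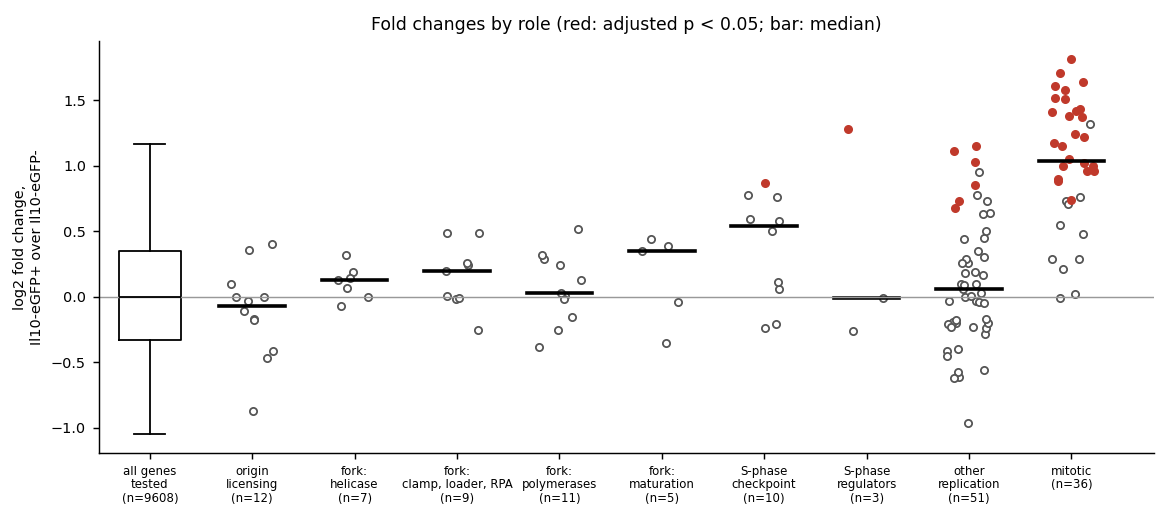
Log2 fold changes of Il10-eGFP+ over Il10-eGFP- T cells by role, with 1 point per gene, a bar at the median and red points for an adjusted p under 0.05. The box gives the quartiles of all 9608 tested genes, with whiskers at the 5th and 95th percentiles (-1.05 and 1.17). Checkpoint genes have a median of 0.54 and licensing genes of -0.07, and the mitotic genes lie mostly near 1.

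The 10 checkpoint and repair genes had a median log2 fold change of 0.54, the highest of the roles. This median ran from 0.344 to 0.595 with single libraries left out, and was 0.109 on rlog values, which are shrunken. Their summed level was 1428 and 1582 CPM in the Il10-eGFP- and 1626 and 1637 CPM in the Il10-eGFP+ libraries. As a log2 ratio this was 0.12. The genes of this role with the most counts, Tipin (1622 in all) and Usp1 (995), were at -0.24 and 0.11. Clspn was called, and 8 of 10 fold changes were above 0. The populations did not overlap with higher values for 6 genes and with lower values for 2. Over all 57 members these counts were 22 (38.6%) and 9 (15.8%), and over all tested genes each direction held 22.3%. Of the genes that did not overlap, only Clspn and E2f8 passed the test. Checkpoint and repair genes outside the 57 lay on both sides of 0. Atr was at -0.56, Rad17 at -0.17 and Rad1 at -0.57, while Rad9a was at 0.10, Hus1 at 0.03 and Topbp1 at 0.19. Fancl was at -0.62, Fanca at 0.35 and Ube2t at 0.44, and none of these was called.

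In the checkpoint role, Rad51ap1, Brca1, Brca2, Fanci and Fancd2 each had higher CPM in both Il10-eGFP+ libraries. Rad51ap1, an accessory factor of homologous recombination, had 31 and 41 against 46 and 70 counts (ENSMUSG00000030346; chromosome 6, 126923050 to 126939587). Its log2 fold change was 0.78 (standard error 0.27, 95% interval 0.23 to 1.33), with an edgeR adjusted p of 0.0979. Brca2, which protects stalled forks, had 62 and 50 against 68 and 80 counts, and a log2 fold change of 0.50 (interval 0.05 to 0.96, adjusted p = 0.259). Brca1, which acts ahead of it, had 25 and 25 against 30 and 40 counts (0.58, interval -0.07 to 1.23). Fanci and Fancd2, which form the clamp that is ubiquitinated at DNA crosslinks, had few counts, with 19 and 12 against 24 and 25 for Fanci (0.76) and 16 and 9 against 16 and 19 for Fancd2 (0.59). As a pair they summed to 35 and 21 against 40 and 44 counts. None of these 5 genes passed the adjusted threshold. Exons of Fanci overlap those of Polg on the opposite strand.

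The core fork sensors had values near or below 0. Tipin, which with Timeless holds the fork together and recruits claspin, had 438 and 469 against 349 and 366 counts (-0.24, 95% interval -0.51 to 0.03). Timeless was at 0.06 with overlapping libraries. Chek1, which encodes Chk1, the kinase that claspin serves, had 66 and 64 against 49 and 56 counts (-0.21, interval -0.68 to 0.27). Clspn thus rose while its partners Tipin and Chek1 had lower values in both Il10-eGFP+ libraries, without passing the test. Usp1, the enzyme that removes ubiquitin from Fancd2 and Pcna, was at 0.11 (interval -0.19 to 0.41), with 239 and 257 against 240 and 259 counts. The end of its transcript shares 50-base sequences with a pseudogene, Gm5841, that had 1 count in each Il10-eGFP+ library and 0 in the others.

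Of the S-phase regulators besides E2f8, E2f1, the activator that opens S-phase transcription, had 79 and 76 against 70 and 50 counts. Its log2 fold change was -0.26 (interval -0.72 to 0.20). Slbp, which binds the stem-loop of histone messengers in S phase, was at -0.01 (interval -0.71 to 0.69) with overlapping libraries.

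The wider pathway was described with 54 further genes of replication, nucleotide supply and the checkpoint, of which 51 were tested. Atrip, Wee1 and Tfdp1 had under 10 counts in all and were not tested. Here 6 of 51 rose and 0 fell (11.8%, against 4.09% of all genes), and the median log2 fold change was 0.06. Those that rose were genes of S-phase entry and of deoxynucleotide supply, together with a helicase and a kinase subunit. Rrm2, the regulated subunit of ribonucleotide reductase, had 137 and 135 against 196 and 261 counts (log2 fold change 0.85, edgeR adjusted p = 0.000466). Ccne1, cyclin E1, which drives S-phase entry, had 35 and 39 against 71 and 83 counts (1.15, adjusted p = 0.00192). In both genes each Il10-eGFP+ library lay above each Il10-eGFP- library. Brip1, the helicase partner of Brca1, was at 1.11, E2f2, an activator E2F, at 1.03, Tk1, thymidine kinase, at 0.68, and Dbf4, the activating subunit of the origin-firing kinase Cdc7, at 0.73 (adjusted p = 0.0412). Cdc7 itself was at -0.20 with overlapping libraries. Only Rrm2 was called when DESeq2 was used, as 1 of 42 genes with an adjusted p (2.38%). Over all genes the DESeq2 share was 2.10%. Leaving out replicate 1 of either population lowered the number of these genes called, and lowered the share called over all genes as well. With single libraries left out, log2 fold changes ran from 0.7 to 0.98 for Rrm2 and from 1.02 to 1.29 for Ccne1. For Brip1 the range was 0.75 to 1.41, for E2f2 0.75 to 1.35, for Tk1 0.5 to 0.85 and for Dbf4 0.57 to 0.88. Rrm2 and Ccne1 were called with each library left out in turn. Brip1 lost its call without Il10-eGFP+ replicate 1, Tk1 without replicate 1 of either population, and E2f2 without Il10-eGFP- replicate 1 or Il10-eGFP+ replicate 2. Dbf4 kept its call in 1 of the 4 omissions, and also lost it with no filter on low counts and with library size only.

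In the same libraries, most mitotic genes rose. Of 36 genes of G2 and M phase, 25 rose and 0 fell (69.4%), and the median log2 fold change was 1.03. Their summed level went from 4073 and 4042 CPM to 8200 and 7932 CPM, a ratio of 1.99, beside the ratio of 1.03 for the 57 replication genes. Mki67, the proliferation marker, had 119 and 85 against 289 and 290 counts. Nusap1, a spindle protein, had 55 and 41 against 133 and 145 (1.64), and Plk1, the mitotic kinase, 88 and 79 against 238 and 178 (1.43). Top2a, which untangles the copied chromosomes, had 1014 and 924 against 1571 and 1741 (0.88), Birc5 was at 1.00 and Cenpf at 1.51. Not all of the mitotic genes passed the test. Ccnb1, with 27 and 27 against 24 and 26 counts, and Mad2l1, with 109 and 122 against 98 and 120, were at -0.01 and 0.02. Ccnb1 and Mad2l1 were picked after their values were seen, and the difference between the lists was not tested.

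The promoter letters also differed between the lists. The cell cycle genes homology region (CHR), TTTGAA on either strand, is known from promoters of genes that peak in G2 and M phase, and was searched in the same windows after the data had been seen. It was present in 23 of 30 mitotic genes with an entry (76.7%), in 6 of 45 members (13.3%) and in 20.2% of all genes. The E2F-type motif was present in 1 of 30 mitotic genes (3.33%), and its shorter form in 5 of 30 (16.7%), Mki67 among them, against 10.9% of all genes. None of its forms contains CHR. Shown to set beside the replication genes above, with CHR in capitals, are a proliferation marker and a ubiquitin-conjugating enzyme of mitosis, Ube2c, which had 43 and 22 against 87 and 73 counts.

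Mki67, chr7:135716444-135716523, minus strand: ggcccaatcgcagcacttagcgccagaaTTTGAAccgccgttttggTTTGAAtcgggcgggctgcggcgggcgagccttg
Ube2c, chr2:164769848-164769927, plus strand: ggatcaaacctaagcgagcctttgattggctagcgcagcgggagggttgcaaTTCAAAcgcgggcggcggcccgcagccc

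The median log2 fold change was 0.00 over the 17 members with the E2F-type motif and 0.02 over the 28 without it. By role it was -0.03 with and -0.41 without the motif in licensing, -0.01 and 0.03 in fork, and 0.69 and 0.58 in checkpoint genes. For the shorter form it was 0.06 over the 30 members with it and -0.01 over the 15 without. A difference by motif was not tested. The members with the E2F-type motif included the gene with the lowest value, Orc1, as well as Clspn. Of the members with CHR, E2f8 was at 1.28 and Mcm2 at -0.47.

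**Figure D5:**
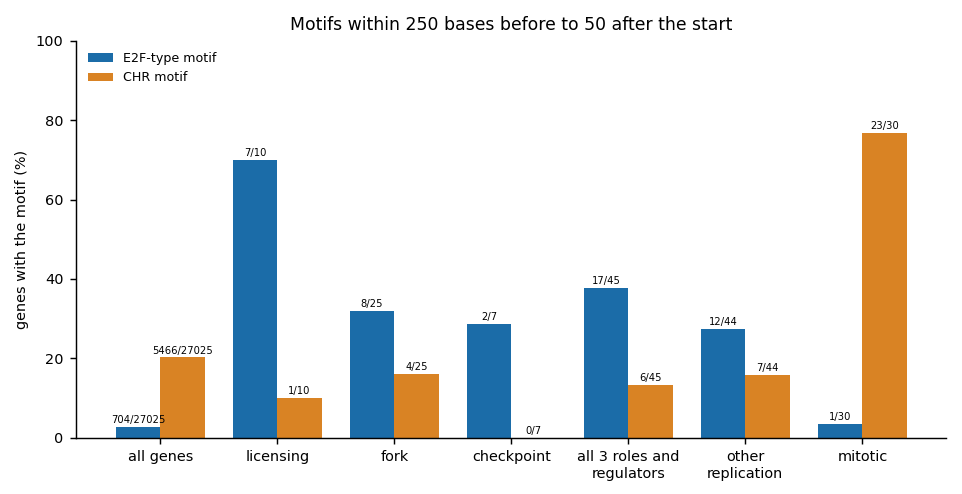
Share of genes (%) whose promoter window holds the E2F-type motif (blue) or CHR (orange), with the number of genes over the number that had an entry. The E2F-type motif is at 70.0% in licensing genes and 3.33% in mitotic genes, and CHR is at 76.7% in mitotic genes and 20.2% in all genes.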

How the data were processed

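RNA of 2 Il10-eGFP+ and 2 Il10-eGFP- libraries was sequenced. The authors deposited raw counts per Ensembl gene, from HTSeq 0.6.0 within Lexogen's BlueBee pipeline on GRCm38 (STAR 2.5.2a is named in the submitters' processing notes), and rlog values on a log2 scale that they derived with DESeq2. Per the labels and methods, unique molecular identifiers were used to gauge starting material and duplicate reads and to correct for amplification, but a step collapsing the deposited counts by identifier is not given in the sources used here. For RNA extraction the methods name a Picopure kit and the labels a PureLink kit. The tables held 0 unused columns of samples and 0 rows that name no gene.

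The 9608 genes that reached 10 counts over all libraries were fitted with edgeR 4.0.16 (R 4.3.3; TMM factors, glmQLFit with legacy settings, glmQLFTest, two-sided), with group as the only term and Benjamini-Hochberg adjustment over all of them at a threshold of 0.05. Standard errors came from the fold change and the F statistic. The fit was tested on simulated counts. Alternatives were DESeq2 1.42.0, limma 3.58.1, other filters and scalings, a replicate block and the omission of single libraries. The members, role groups and other lists were chosen with earlier results of these data known. Named are members past the threshold, the 3 of each role with the highest CPM, complex subunits, and at most 6 called genes of each other list, and further genes were picked after their values were seen. Exon overlaps and 50-base sequences shared by the last 500 bases of transcripts came from GENCODE M21. Exons of 23 members overlapped another gene, and 16 members shared a 50-base sequence. Intervals are 95% and cover the spread between these libraries, which may be technical.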

Additional observations from a re-analysis of the deposited data

How the results depend on the processing

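With all 4 libraries, the count of members called was 2 under 8 of the alternatives (library size only, RLE, upper quartile, TMM without the 3 genes with the most counts, bias-adjusted deviances, no filter, filterByExpr and limma on rlog values). It was 4 with at least 5 counts in every library and with limma voom, which added Mcm2 and Lig1 to Clspn and E2f8 (7.02% of the members, against 5.74% and 4.25% of all genes), and 1 (Clspn) at an adjusted p under 0.01. DESeq2's Wald test called 0 of the 55 members with an adjusted p, with 5 members at an unadjusted p under 0.05, 112 of all genes (2.10%) and 1 of the other replication genes. At an adjusted p under 0.01, 177 of all genes were called. The replicate block called 5 members (8.77%), adding Lig1 (adjusted p = 0.00961), Mcm2 (0.0107) and Orc1 (0.0475) to Clspn and E2f8, and 560 of all genes (5.83%). The study's methods speak of a replicate pair but do not say that equal numbers mark 1 mouse, and their deviations from the population means correlated at 0.018 over 6781 genes.

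With each library left out in turn, 1 to 2 members, 3 to 5 other replication genes, 18 to 24 mitotic genes and 212 to 272 of all genes were called. The 1 member called without Il10-eGFP- replicate 1 was Clspn. Without Il10-eGFP+ replicate 1 the calls were Clspn and Mcm2. The lone library of a population was then taken to vary like the others. Leaving out Il10-eGFP+ replicate 2 gave the lowest count over all genes, 212, and leaving out Il10-eGFP- replicate 1 gave 223. Of the other replication genes, 3 were called when replicate 1 of either population was left out. Median log2 fold changes ran from 0.023 to 0.165 over all members, -0.208 to 0.033 for licensing, 0.107 to 0.169 for the fork, and 0.344 to 0.595 for checkpoint genes. Within the fork they ran from 0.006 to 0.163 for helicase, 0.1 to 0.252 for clamp, -0.04 to 0.108 for polymerase and 0.228 to 0.41 for maturation genes. For the regulators the range was -0.29 to 0.34. On rlog values, which are shrunken, the medians were 0.155 for maturation, 0.109 for checkpoint and 0.036 for fork genes. The shorter E2F motif raised the share of members that hold it from 37.8% to 66.7%.

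The sign was kept under every alternative for 35 of 57 members. With 4 libraries, 7 members changed sign, none with a log2 fold change beyond 0.026 in size. Orc6 was at 0.01 with at least 5 counts in every library, filterByExpr and voom, 0.00015 with RLE and 0.0021 on rlog. Cdc45 was at 0.01, 0.00062 and 0.0035 under the same settings. Slbp was at 0.00052 with filterByExpr and 0.02 with voom. Mcm6 was at -4.6e-05 with no filter, -0.02 with library size only, and -0.01 with upper quartile, voom, rlog and the replicate block. With library size only Rpa3 was at -0.01, Pold1 at -0.02 (-0.0043 with upper quartile) and Pole3 at -0.00011. With a library left out, 22 members changed sign, and their log2 fold changes ran as follows: Orc6 -0.2 to 0.22, Mcm3 -0.13 to 0.07, Mcm6 -0.28 to 0.23, Mcm10 -0.03 to 0.16, Cdc45 -0.16 to 0.16, Gins3 -0.09 to 0.4, Gins4 -0.1 to 0.42, Wdhd1 -0.29 to 0.14, Rfc3 -0.19 to 0.13, Rfc5 -0.57 to 0.13, Rpa2 -0.14 to 0.1, Rpa3 -0.36 to 0.49, Pola2 -0.04 to 0.28, Pold1 -0.15 to 0.17, Pold2 -0.43 to 0.17, Pold3 -0.13 to 0.09, Pole3 -0.0011 to 0.05, Dna2 -0.27 to 0.25, Rnaseh2a -0.83 to 0.03, Timeless -0.13 to 0.22, E2f1 -0.6 to 0.02, Slbp -0.31 to 0.34.

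These libraries are shallow and few. For the 57 members the lowest library count was 9, and the printed intervals give the precision of each fold change.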
